A study of Mus musculus with 24 samples.

Results

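The hemisphere opposite the occluded artery was compared between mice whose middle cerebral artery had been occluded (MCAO, a way to model ischaemic stroke in rodents) and mice after sham surgery. All contralateral arrays of the series were taken, 12 of 24, of which 8 were from MCAO mice and 4 from sham mice. The mice were male C57Bl/6j, 8 to 10 weeks old, with no other genotype given. MCAO mice had 90 min of occlusion by the intraluminal model and 30 min of reperfusion, and were killed 2 h after onset. Sham mice had control surgery without a stated occlusion. No reperfusion time and no time to death are given for them, so the interval from surgery could not be compared between the groups. No unoperated mice were analysed here, so what both surgeries share does not appear in a difference between them. All mice were perfused with cold saline, and each whole hemisphere was frozen and measured on its own whole-transcript Affymetrix array. The labels call the contralateral side of the MCAO mice the healthy hemisphere. The comparison asks whether that side differed from its sham counterpart.

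The contralateral hemisphere is often used as the internal control of the ischaemic side. It keeps its own arterial supply, but it is joined to the injured side by the corpus callosum and shares circulating hormones, cytokines and leukocytes with it. Immediate early genes are transcribed within minutes of a stimulus without new protein synthesis. In neurons many of them follow calcium entry and synaptic activity, through the factors CREB and SRF at their promoters, and in endothelium they follow flow, hypoxia and inflammatory signals. Seizures and spreading depolarization are known triggers of Fos, Arc and Npas4 in brain tissue.

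On 10 of the 12 arrays the signals were alike, with a standard deviation over probe sets of 2.328 to 2.414 on the log2 scale and a median correlation with the others of 0.985 to 0.99. Of the other arrays, one came from MCAO mouse 3 and one from sham mouse 1. Their standard deviations were 1.475 and 1.437, their median correlations 0.372 and 0.33, and their negative controls reached 7.604 and 7.607 at the 95th percentile against 5.168 to 5.739 on the others. Results below use the 7 MCAO and 3 sham arrays with a standard deviation of at least 2. Values with all 12 arrays accompany the counts over all probe sets, the medians of the lists described and signs that turn. Some list counts with all 12 arrays are given at the end. The 2 other arrays are 1 of 8 MCAO and 1 of 4 sham arrays, and so weigh more in the sham mean. With them the median of the 24 pan-neuronal markers moved from 0.024 to 0.537, with 24 of 24 above 0. A greater list median with all 12 arrays is thus not read as a stronger difference. The tissue label was borne out by its markers: 23 of 24 pan-neuronal, 17 of 17 astrocyte and 15 of 19 oligodendrocyte markers were above background on all 10 arrays. Fewer endothelial markers (10 of 19) and microglia markers (6 of 17) were, and 4 of each were above background on none. A signal is called above background where it exceeds the 95th percentile of the negative controls of its array. In a whole hemisphere, fewer cells of a type and less RNA per cell cannot be told apart.

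The promoter stretches of 6 genes, selected among those with differences near or above 1 log2 unit, are shown. The 6 include neuronal, vascular and ubiquitous immediate early genes. Others in that range, such as Klf4, are not shown, so the 6 do not stand for all genes that differed. The stretches are the 200 bases before the annotated start, from RefSeq (build GRCm38.p6), read 5′ to 3′ on the gene's strand. Capitals mark the letters TGACG on either strand, the core of the cyclic AMP response element that CREB binds, and the whole element TGACGTCA, which holds TGACG on both strands.
Apold1 (chr6:134981801-134982000, plus strand): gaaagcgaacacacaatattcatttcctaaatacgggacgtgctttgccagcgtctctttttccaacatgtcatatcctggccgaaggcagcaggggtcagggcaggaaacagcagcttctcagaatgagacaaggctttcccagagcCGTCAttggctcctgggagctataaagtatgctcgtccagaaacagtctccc
Ccn1 (chr3:145649986-145650185, minus strand): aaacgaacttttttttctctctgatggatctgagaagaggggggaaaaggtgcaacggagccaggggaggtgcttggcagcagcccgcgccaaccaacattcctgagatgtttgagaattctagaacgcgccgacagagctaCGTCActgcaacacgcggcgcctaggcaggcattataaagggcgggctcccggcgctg
Dusp1 (chr17:26508473-26508672, minus strand): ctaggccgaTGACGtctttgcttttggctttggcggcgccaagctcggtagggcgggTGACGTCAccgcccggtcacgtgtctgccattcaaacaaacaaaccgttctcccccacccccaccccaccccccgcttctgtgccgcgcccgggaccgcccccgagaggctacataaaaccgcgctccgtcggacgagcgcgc
Btg2 (chr1:134079156-134079355, minus strand): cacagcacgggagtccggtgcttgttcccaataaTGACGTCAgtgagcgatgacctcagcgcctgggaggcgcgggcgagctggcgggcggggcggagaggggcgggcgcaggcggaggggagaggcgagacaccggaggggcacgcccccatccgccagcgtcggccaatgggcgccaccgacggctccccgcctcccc
Fos (chr12:85473690-85473889, plus strand): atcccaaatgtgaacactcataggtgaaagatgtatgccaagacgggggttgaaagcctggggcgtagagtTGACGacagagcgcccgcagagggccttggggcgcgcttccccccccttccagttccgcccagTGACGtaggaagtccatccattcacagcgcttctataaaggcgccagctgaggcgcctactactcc
Npas4 (chr19:4989972-4990171, minus strand): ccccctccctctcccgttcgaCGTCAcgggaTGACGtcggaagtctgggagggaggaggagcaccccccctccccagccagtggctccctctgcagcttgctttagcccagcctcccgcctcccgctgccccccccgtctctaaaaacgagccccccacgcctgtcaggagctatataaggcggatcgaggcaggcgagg

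Each of the 6 stretches held TGACG at least once. Dusp1 and Btg2 held the whole element TGACGTCA, beginning 143 and 166 bases before the start. Apold1 and Ccn1 had the core once each, beginning 52 and 58 bases before the start, and Fos and Npas4 had 2 each. Over the 250 bases before all 32851 annotated starts, TGACG occurred in 17.8% and TGACGTCA in 1.55%. Of 31 such windows of the immediate early transcription factors described below, which belong to 22 genes, 67.7% held TGACG and 6.45% TGACGTCA. The same 31 windows held the AP-1 letters TGANTCA in 3.23%, against 6.75% of all windows, and the CArG box of SRF in 12.9%, against 1.47%. Some genes have several windows: of the 22 genes, 15 held TGACG, 2 TGACGTCA, 1 the AP-1 letters and 1 the CArG box, so all 4 windows with a CArG box belong to 1 gene. These are matches of letters, searched on both strands.

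No probe set passed the threshold in the contralateral hemisphere. Of 22206 probe sets tested with limma, 0 (0%) had a Benjamini-Hochberg adjusted p under 0.05, and 1020 (4.59%) had an unadjusted p under 0.05, where 1110.3 are expected if no gene differs. Of these, 560 (2.52%) were higher and 460 (2.07%) lower in MCAO mice. Groups did not overlap for 173 probe sets that were higher (0.779%) and 133 that were lower (0.599%). With 7 against 3 arrays some probe sets separate even if no gene differs, so lack of overlap in a single gene is only descriptive. With all 12 arrays 0 passed and 81 (0.365%) had an unadjusted p under 0.05, and the median standard error of a difference was 0.443 log2 units against 0.162 with the 10 arrays.

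Higher and lower probe sets were not alike in signal. Among probe sets at or above the median signal, 185 of those with an unadjusted p under 0.05 were higher and 57 lower, while among dimmer ones 375 were higher and 403 lower. A difference of more than 1 log2 unit occurred in 7 probe sets, and all 7 were higher in MCAO mice. They were Npas4, Ccn1, Fos, Klf4, Apold1, Btg2 and the pseudogene Sprr2j-ps, and the last was not above background on any array. The other 6 are known as immediate early genes.

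**Figure D1:**
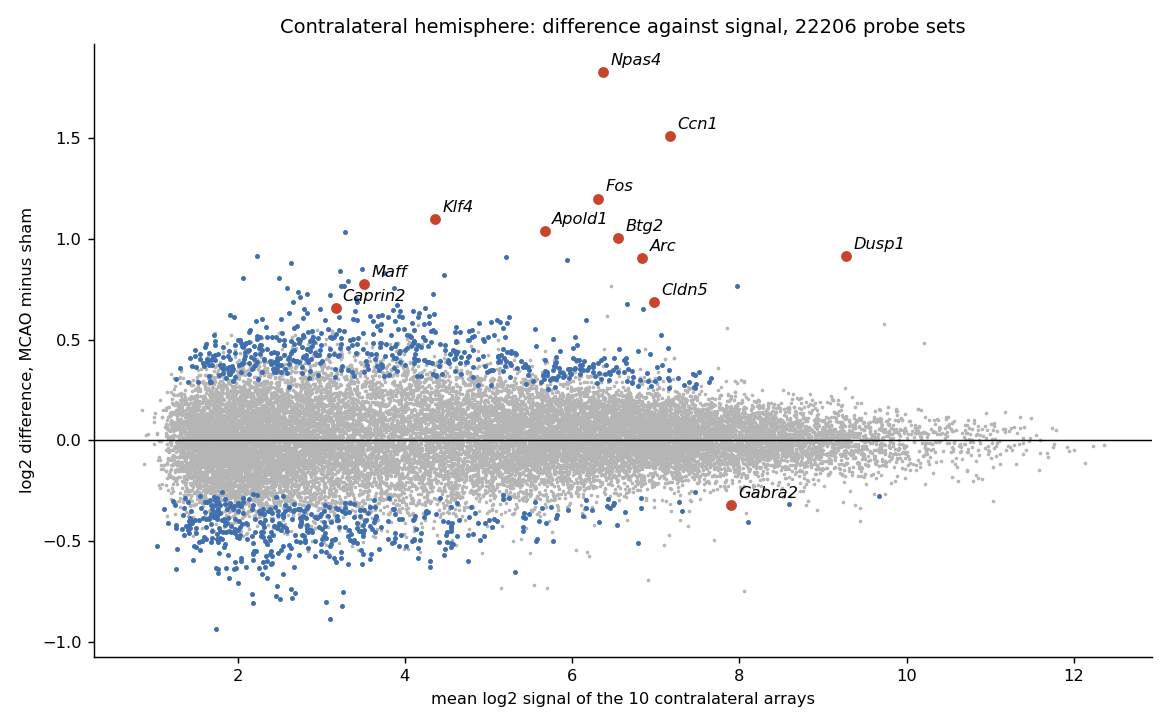
Log2 difference between MCAO and sham contralateral hemispheres (vertical axis) against mean log2 signal of the 10 arrays (horizontal axis) for 22206 probe sets, with unadjusted p under 0.05 in blue and named genes in red. The bright probe sets with the greatest differences, Npas4 at 1.83 and Ccn1 at 1.51, lie above 0, and no probe set reaches 1 below it.

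Apold1, an early response gene of endothelial cells that acts in vascular permeability, came nearest to the threshold. Its log2 signal was 5.78 in the lowest, 5.85 in the median and 6.43 in the highest of the 7 MCAO mice, against 4.84, 4.99 and 5.00 in the 3 sham mice. All 7 MCAO values lay above all sham values, and the MCAO mice spanned a narrow range with mouse 1 at the top. The difference was 1.04 ± 0.15 (SE), with an adjusted p of 0.174 by limma, the smallest of the comparison. No sham array was above background for Apold1 while all 7 MCAO arrays were, so the fold is given as at least 1.30-fold, with each sham signal set to its background. On the 2 arrays that stood apart the signal was 6.09 in MCAO mouse 3 and 5.38 in sham mouse 1, and with them the difference was 0.94 ± 0.21. Apold1 was the gene whose call depended on the method: it passed in 3 of 20 alternatives, with an adjusted p of 0.0223 with eBayes trend and robust settings, 0.0313 without dim probe sets and 0.0270 with array weights on all 12 arrays, in a range of 0.0223 to 1 over the 20.

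Some other genes linked to vessels, picked with their values known, were also higher without passing the threshold. Vessel genes did not all go this way. Of 15 pericyte and smooth muscle markers, 4 lay above 0 and 11 below, with a median of -0.053. Klf4, a transcription factor induced in endothelium by shear stress, had signals of 4.09, 4.61 and 5.64 (lowest, median and highest of 7) in MCAO mice and 3.86, 3.19 and 3.72 in sham mice. The groups did not overlap, the highest values being those of mice 1 and 2, and the difference was 1.10 ± 0.28 (adjusted p by limma 0.988). Klf4 was above background on 1 MCAO array and no sham array. Ccn1, a secreted matrix protein that acts on endothelium and is also induced by neuronal activity, had signals of 6.79, 7.48 and 8.84 in MCAO mice and 5.95, 5.85 and 6.54 in sham mice. Here too every MCAO mouse was above every sham mouse, with mice 6, 2 and 1 on top. The difference was 1.51 ± 0.38, a 2.85-fold higher mean signal (adjusted p by limma 0.988).

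Adamts1, a secreted protease that restrains angiogenesis, was 5.61, 6.22 and 6.75 in MCAO mice and 5.12, 5.01 and 5.79 in sham mice. Mouse 8 fell below the highest sham mouse, and the difference was 0.90 ± 0.24 (adjusted p by limma 0.988). Cldn5, the main claudin of the tight junctions of the blood-brain barrier, was 6.68, 7.19 and 7.89 in MCAO mice and 6.20, 6.51 and 6.79 in sham mice. Mouse 4 overlapped the sham range and mouse 1 was highest; the difference was 0.68 ± 0.22 (adjusted p by limma 1.000). Flt1, a VEGF receptor, had a smaller difference of 0.26 ± 0.12 with groups that did not overlap, the closest values being 7.36 in MCAO mouse 2 and 7.32 in a sham mouse.

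Of 19 endothelial markers measured, 10 were above background on all 10 arrays. Among the 19, 0 passed, 2 had an unadjusted p under 0.05 and were higher (Cldn5 and Flt1), and 17 lay above 0. Their median difference was 0.112 (0.293 with all 12 arrays), against 0.012 over all 19505 genes. The list mean relative to sham was 0.026 to 0.276 in the 7 MCAO mice and -0.054 to 0.062 in the 3 sham mice, with the highest value in mouse 1, which also had the highest Apold1, Klf4 and Cldn5. Mice 7 and 4 were within the sham range of the list mean although their Apold1 was above every sham mouse, and the part of endothelial content in the Apold1 difference was not tested. Of 20 NF-kB targets and endothelial adhesion molecules, 0 passed and 5 (25%) had an unadjusted p under 0.05, all higher, against 2.58% of all genes higher at that p, with a median of 0.107 over the list that turned to -0.031 with all 12 arrays. Nfkbiz, an atypical inhibitor protein of the NF-kB family, had a difference of 0.58 ± 0.17 and Selp, the adhesion molecule P-selectin, 0.46 ± 0.17. Neither was above background on any array, and the Selp difference turned to -0.13 with all 12 arrays. Zfp36, which promotes the decay of cytokine messenger RNAs, was 4.64 to 6.29 in MCAO mice with 4 of 7 above background, and 4.06, 4.55 and 5.10 in sham mice with 0 of 3.

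**Figure D2:**
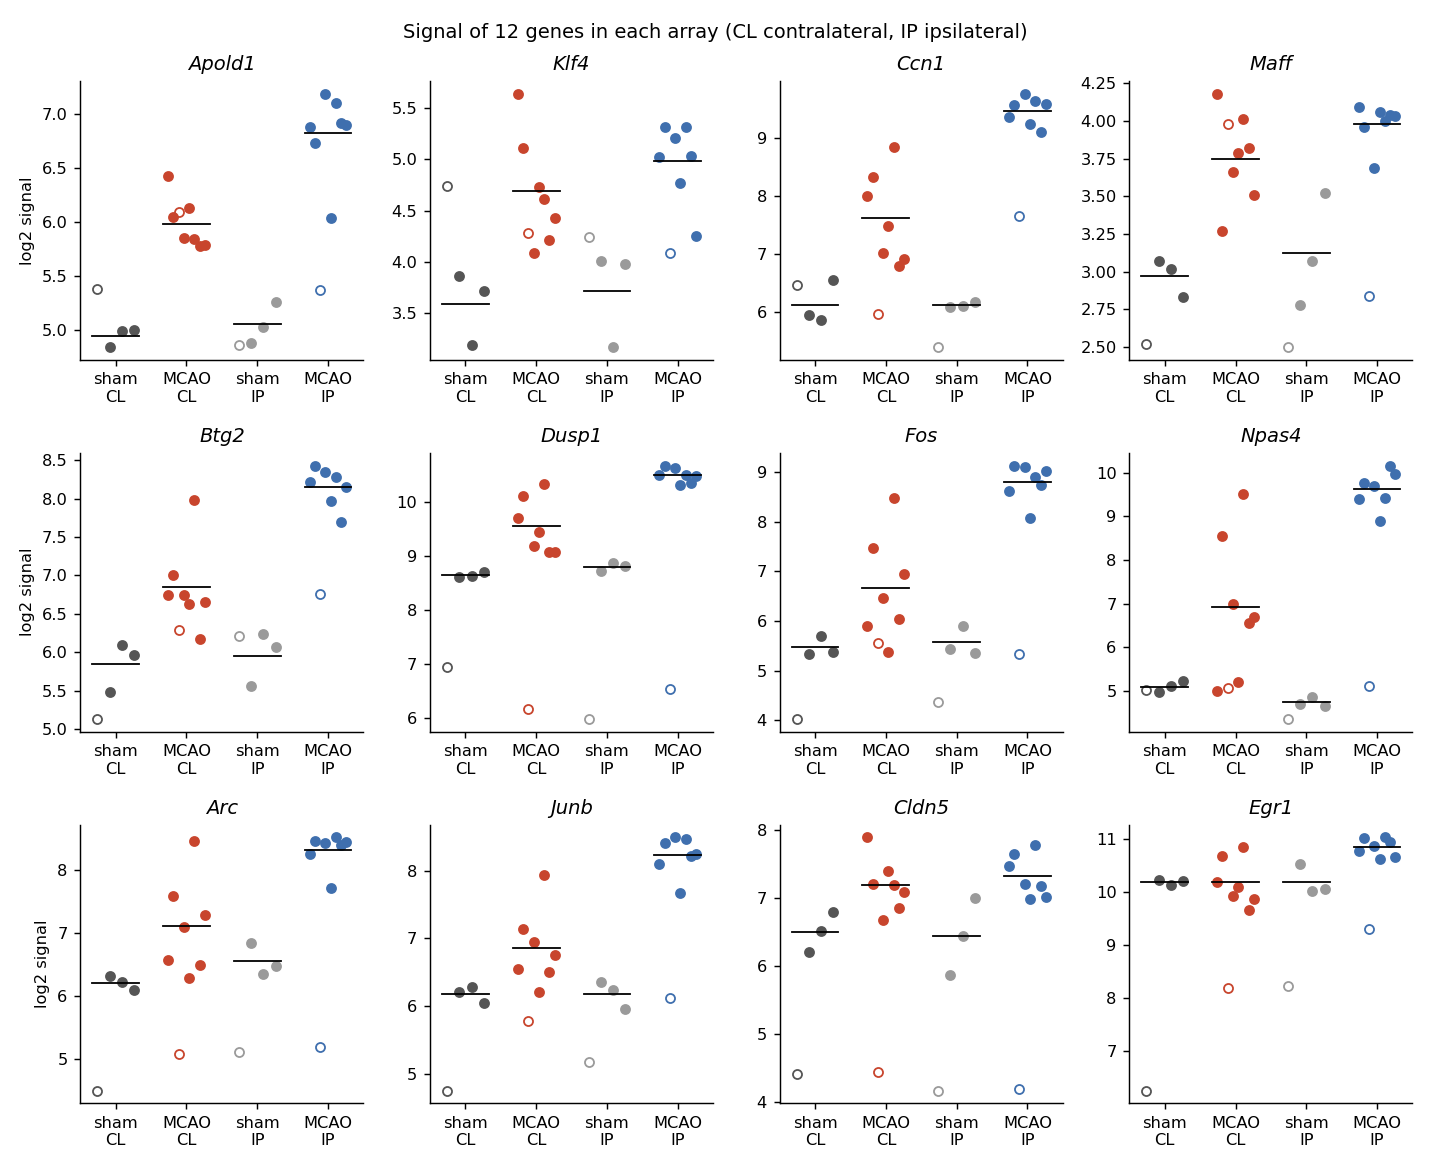
Log2 signal of 12 genes (vertical axes) in each array of the 4 groups, CL contralateral and IP ipsilateral, with filled points for the arrays used, open points for MCAO mouse 3 and sham mouse 1, and a line at the mean of the filled points. Contralateral Apold1 lies between 5.78 and 6.43 in MCAO mice, above all 3 sham mice, whereas Npas4 spreads from 4.99 to 9.51 and overlaps the sham mice in mice 1 and 5.

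The differences in the neuronal immediate early genes came from some mice more than others. Npas4, a transcription factor specific to active neurons, had a contralateral signal of 4.99 in MCAO mouse 1, 8.54 in mouse 2, 6.99 in mouse 4, 5.19 in mouse 5, 9.51 in mouse 6, 6.56 in mouse 7 and 6.68 in mouse 8. The sham mice were at 4.96, 5.11 and 5.21. Thus 5 MCAO mice were above background and above all sham mice, while mice 1 and 5 were within the sham range and below background. The difference was 1.83 ± 0.75 and the mean signal at least 2.50-fold higher, with an adjusted p of 1.000 by limma.

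Fos, the founding member of the AP-1 family, followed the same order at the top. It was at 5.91, 7.47, 6.47, 5.37, 8.47, 6.05 and 6.94 in MCAO mice 1, 2, 4, 5, 6, 7 and 8, and at 5.34, 5.69 and 5.38 in sham mice. Mice 6 and 2 were highest, and mouse 5 was within the sham range. The difference was 1.20 ± 0.49 (adjusted p by limma 1.000), and 6 MCAO arrays and 1 sham array were above background. Fosb, a partner of the same family, had a difference of 0.76 ± 0.38 with 8.33 in mouse 6 and 5.94 to 6.87 in the other 6 MCAO mice.

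Btg2, an antiproliferative early gene, was more even between mice. Its signal was 6.17, 6.75 and 7.98 in MCAO mice and 5.48, 5.96 and 6.09 in sham mice. All MCAO mice were above all sham mice, with mouse 6 highest, and the difference was 1.00 ± 0.29 (adjusted p by limma 1.000). Nr4a1, an orphan nuclear receptor, was 7.66 to 9.38 in MCAO mice and 7.33 to 7.51 in sham mice, again without overlap, with a difference of 0.76 ± 0.30. Junb had a difference of 0.68 ± 0.28 and Jun one of 0.52 ± 0.17, and in both mouse 6 was highest and 1 MCAO mouse reached down to the sham range. Maff, a small basic leucine zipper factor, had a difference of 0.78 ± 0.18 without overlap, but was not above background on any array.

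Of 28 immediate early transcription factors measured, 0 passed the threshold and 13 (46.4%) had an unadjusted p under 0.05, all higher, against 2.52% of all probe sets higher at that p. They were Klf4, Maff, Btg2, Jun, Ier5, Ier2, Nr4a1, Csrnp1, Fos, Junb, Npas4, Fosl2 and Ier3. Of the 28, 15 were above background on all 10 arrays and 5 on none. Without dim probe sets, 10 of 24 were higher at an unadjusted p under 0.05, against 177 of 10132 genes. The median difference of the list was 0.409, against 0.012 over all genes, and 25 of 28 lay above 0. With all 12 arrays 5 were higher at an unadjusted p under 0.05, against 0.207% of all probe sets, 25 lay above 0 and the median was 0.562, against 0.030 over all genes and 0.537 over the 24 pan-neuronal markers, whose median was 0.024 with the 10 arrays. Not all members moved together: Egr1, one of the brightest, was 9.66, 10.10 and 10.85 (lowest, median and highest of 7) in MCAO mice and 10.14, 10.21 and 10.23 in sham mice. Its difference was -0.01 ± 0.22, with mice on both sides of the sham range. Nr4a2 and Nr4a3, close relatives of Nr4a1, had differences of 0.07 ± 0.24 and 0.01 ± 0.20. Egr1, Nr4a2 and Nr4a3 changed sign between processing alternatives or when 1 mouse was left out.

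The mice differed in how much of the list stood above sham. The list mean relative to the sham mean was 1.056 in mouse 6, 0.786 in mouse 2, 0.460 in mouse 1, 0.383 in mouse 4, 0.378 in mouse 8, 0.177 in mouse 7 and 0.124 in mouse 5. The 3 sham mice lay between -0.028 and 0.027, below every MCAO mouse. Mouse 2 exceeded the highest sham value in 24 of the 28 genes and mouse 6 in 23, but mouse 5 in 9 and mouse 7 in 12. Over all 19505 genes the same share was 22.6% to 34.2% per MCAO mouse, against 32.1% in mouse 5 and 85.7% in mouse 2 within the list. Mouse 6 had the highest value of the 7 MCAO mice in 16 of the 28 genes. Mouse 1 was highest in 6 and had one of the lowest Npas4 and Fos signals, so the order of the mice was not the same for every gene.

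**Figure D3:**
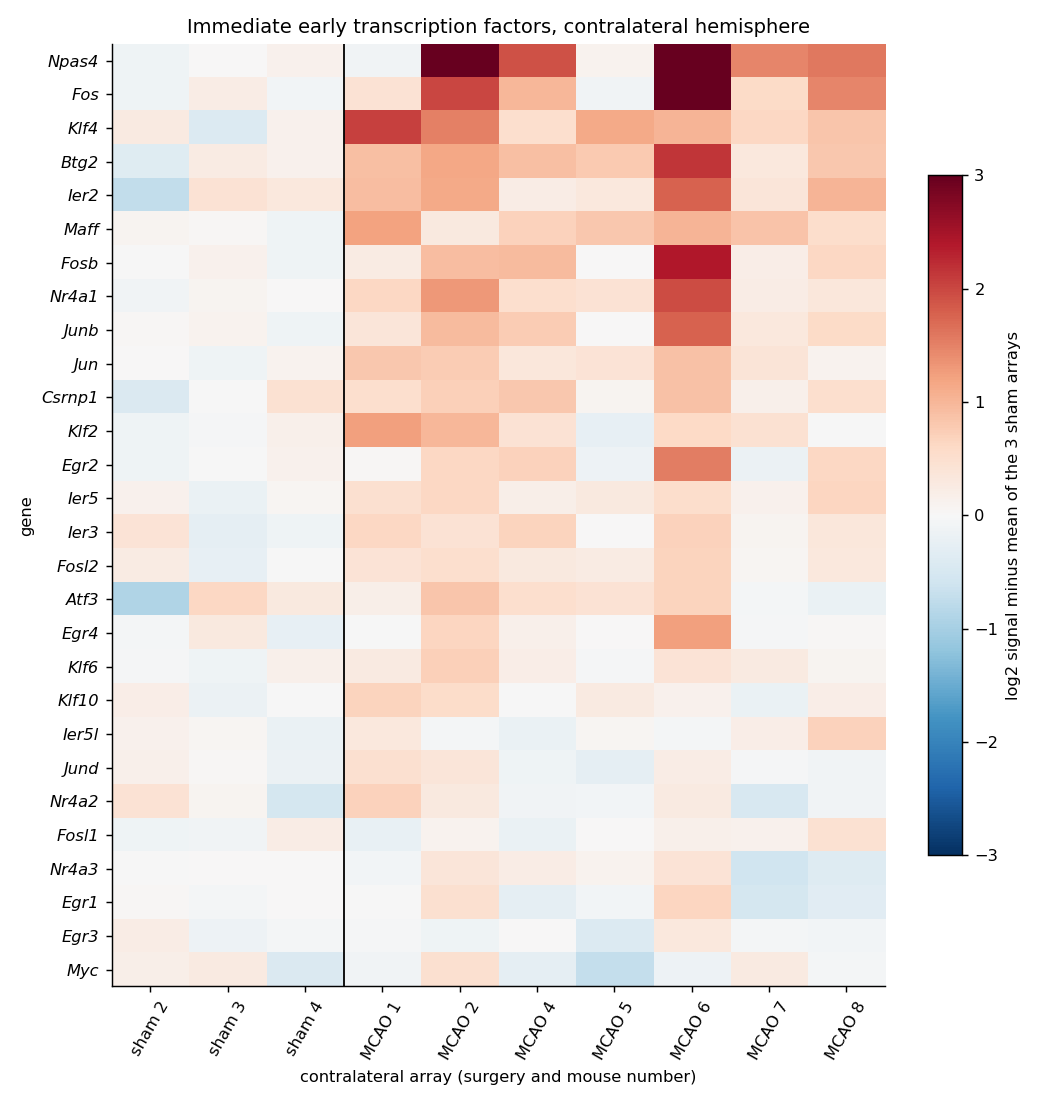
Log2 signal minus the mean of the 3 sham arrays (colour, ending at 3 in either direction) for 28 immediate early transcription factors (rows, by mean of the MCAO mice) in 10 contralateral arrays (columns). MCAO mice 2 and 6 are darkest in the Npas4 and Fos rows, mouse 1 in Klf4, and the rows from Nr4a3 to Myc stay near 0 in most mice.

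Effector genes of neuronal activity encode synaptic, signalling and secreted proteins. Of 25 measured, 0 passed and 3 had an unadjusted p under 0.05, all higher (Ccn1, Sik1 and Arc), with 19 above 0 and a median of 0.164. With all 12 arrays 25 of 25 lay above 0 and the median was 0.489. Arc, a synaptic capsid-like protein that controls glutamate receptor traffic, was 6.29, 7.09 and 8.46 in MCAO mice and 6.09, 6.22 and 6.31 in sham mice. Mouse 5 overlapped the sham range and mouse 6 was highest, and the difference was 0.90 ± 0.36 (adjusted p by limma 1.000). Sik1, a kinase induced by cyclic AMP, had a difference of 0.47 ± 0.16. Ptgs2, the inducible cyclooxygenase, had 0.62 ± 0.33, Rgs2, which speeds the turning off of G proteins, 0.29 ± 0.33, and Gadd45g, a stress and DNA demethylation factor, 0.34 ± 0.29. In these 3 genes the MCAO range covered most of the sham range. With 1 array left out in turn the Rgs2 difference ran from 0.08 to 0.47, the lowest without MCAO mouse 6 or without sham mouse 4, and that of Gadd45g from 0.13, without MCAO mouse 6, to 0.46.

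Among the phosphatases that switch off MAP kinases, Dusp1 differed most. It was 9.07, 9.44 and 10.33 in MCAO mice and 8.60, 8.63 and 8.69 in sham mice. Every MCAO mouse was above the sham mice, the top values being those of mice 6, 2 and 1, and the difference was 0.91 ± 0.25, a 1.88-fold higher mean (adjusted p by limma 0.988). Dusp6, specific for ERK, had 0.56 ± 0.30 with overlap. Dusp2 had -0.55 ± 0.24 and Spry1, a receptor tyrosine kinase inhibitor, 0.43 ± 0.22, neither above background on any array, and Spry1 turned to -0.01 with all 12 arrays. Of the 15 phosphatases and feedback inhibitors, 1 was higher and 1 lower at an unadjusted p under 0.05, against 504 and 390 of 19505 genes. The median was 0.037, or 0.075 with all 12 arrays.

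Dusp1 is also a glucocorticoid target. Of 40 glucocorticoid-responsive genes, Dusp1 was the 1 with an unadjusted p under 0.05; 22 lay above 0 and 18 below, with a median of 0.013. With all 12 arrays 32 lay above 0 and the median was 0.289, against 0.537 over the pan-neuronal markers. Per1, a clock gene that responds to glucocorticoid and CREB, had 0.30 ± 0.18, and Xdh, xanthine dehydrogenase, -0.55 ± 0.27, the latter below background. Among 21 circadian clock genes 16 lay above 0, with a median of 0.090 (0.392 with all 12 arrays). Ciart, a repressor of the clock, was 6.58, 7.04 and 7.47 in MCAO mice and 6.28, 6.44 and 6.45 in sham mice. The groups did not overlap and the difference was 0.65 ± 0.18 (adjusted p by limma 0.988); Bhlhe41 and Nr1d1, other clock repressors, had 0.29 ± 0.16 and 0.24 ± 0.13. The labels do not give the time of day of sampling.

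Of 23 cytokines and chemokines, 0 passed, 3 were higher (Il1a, Cxcl1 and Ccl3) and 1 lower (Ccl5) at an unadjusted p under 0.05, against 2.58% higher of all genes, and the median was 0.090, or -0.026 with all 12 arrays. These 4 were not above background on any contralateral array. Ccl3, a macrophage chemokine, was 3.45 to 5.35 in MCAO mice and 3.21, 3.37 and 3.74 in sham mice, with mouse 6 on top. Of 27 hypoxia and HIF-1 targets, 0 had an unadjusted p under 0.05 and the median was 0.048, or 0.246 with all 12 arrays. The 3 with the smallest p were Car9 at 0.36 ± 0.22 and Car12 at -0.37 ± 0.23, both carbonic anhydrases, and Vegfa, the endothelial growth factor, at 0.19 ± 0.13, the last turning to -0.22 with all 12 arrays. Neutrophil and monocyte markers were below background on every one of the 10 arrays for all 18 measured.

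Of 18 heat shock chaperones, 0 passed and 2 were higher at an unadjusted p under 0.05, against 2.58% of all genes. The median was 0.040 (0.412 with all 12 arrays). Hspb8 and its partner Bag3, which together route damaged proteins to autophagy, were these 2, at 0.73 ± 0.16 and 0.35 ± 0.16. Hspb8 was 4.25 to 4.94 in MCAO mice and 3.67, 3.84 and 3.97 in sham mice without overlap, but below background on all arrays, and Bag3 was above it on 1. Hspa1b, the inducible HSP70, was at -0.04 ± 0.23, with a sign that varied with processing, and Hspa4 had 0.20 ± 0.14. Of 23 sterol synthesis genes, 0 passed, 3 were higher at an unadjusted p under 0.05 and 18 lay above 0, with a median of 0.089 (0.367 with all 12 arrays). The 3 were Idi1, Cyp51 and Mvd, enzymes of the mevalonate and cholesterol pathway, at 0.46 ± 0.18, 0.31 ± 0.13 and 0.32 ± 0.15.

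**Figure D4:**
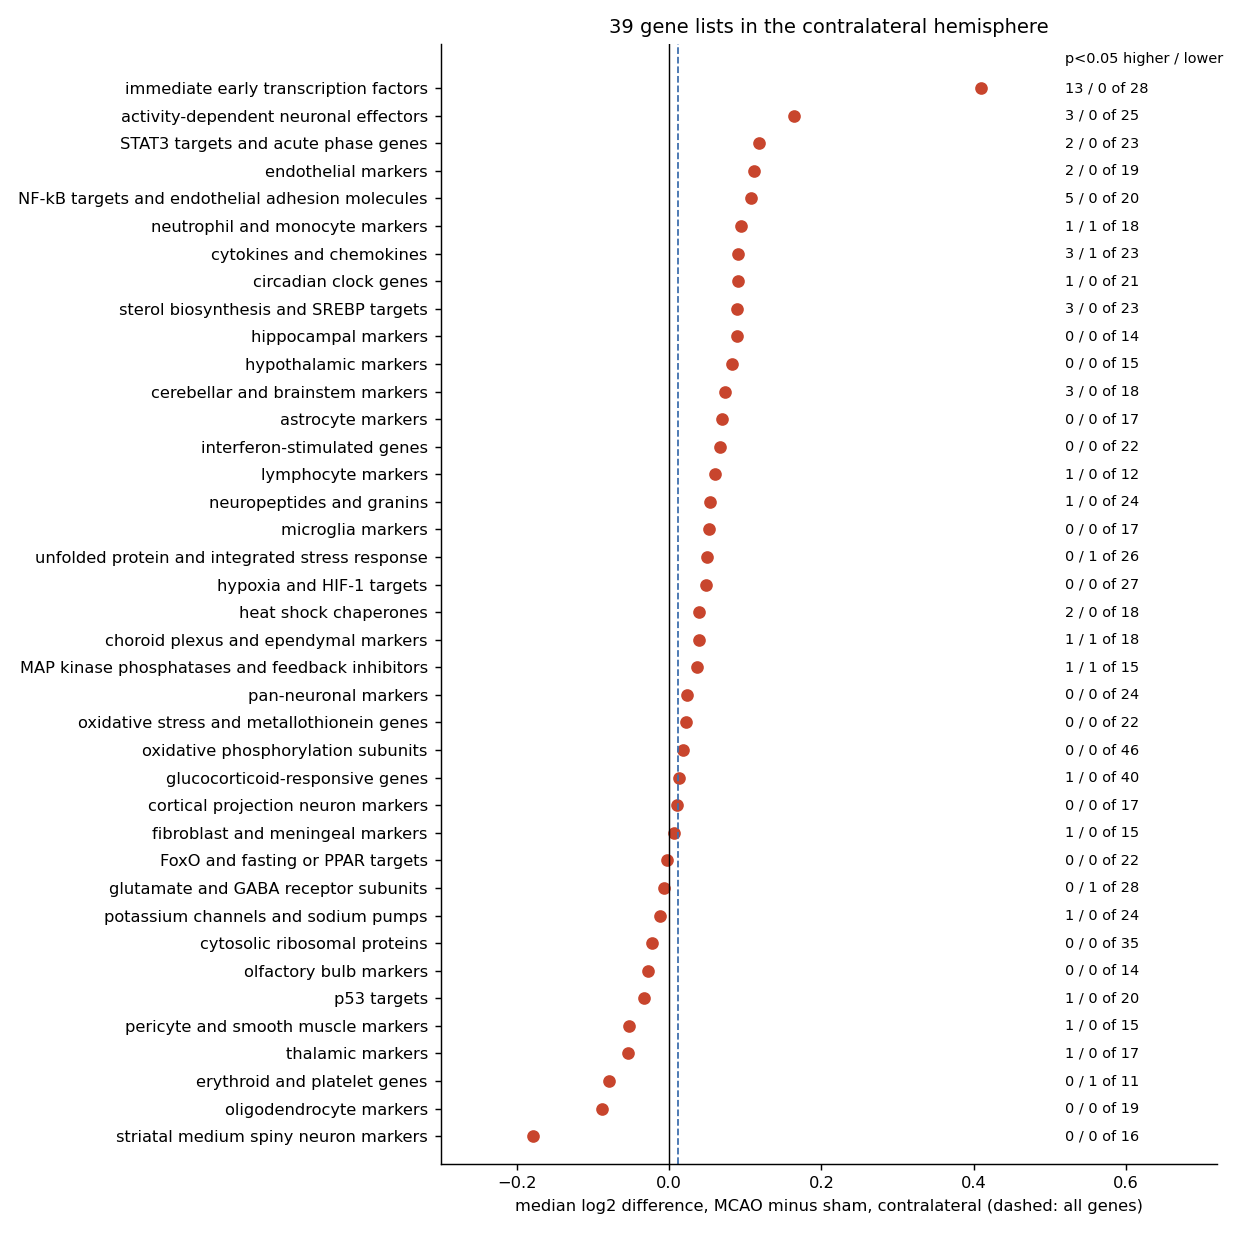
Median log2 difference between MCAO and sham contralateral hemispheres (horizontal axis) for 39 gene lists (rows), with the counts of members at unadjusted p under 0.05 higher and lower at the right and the median of all genes, 0.012, as a dashed line. Immediate early transcription factors lie at 0.409, apart from the others, which run from -0.179 for striatal neuron markers to 0.164 for activity-dependent effectors.

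Among lists of brain regions, striatal markers varied most between mice. The standard deviation of the list mean was 0.632 over the 7 MCAO mice and 0.422 over the 3 sham mice. For cortical, hippocampal, hypothalamic, thalamic, cerebellar and olfactory bulb lists it was 0.077 to 0.143 in MCAO and 0.030 to 0.184 in sham mice. Of 16 striatal medium spiny neuron markers, 15 lay below 0 with a median of -0.179 and 0 had an unadjusted p under 0.05. Over all genes 9166 of 19505 lay below 0. The ipsilateral hemisphere was alike, with 14 of the 16 below 0 and a median of -0.198. With all 12 contralateral arrays 4 lay below 0 and the median was 0.095. The list mean relative to sham was -1.136 in mouse 5, -0.837 in mouse 2, -0.384 in mouse 4, -0.277 in mouse 1, 0.388 in mouse 7, 0.404 in mouse 6 and 0.405 in mouse 8. The sham mice were at -0.100, 0.463 and -0.364, so 3 MCAO mice lay near the top of the sham range and 3 below its lowest. Mice 6 and 5, the highest and lowest in immediate early genes, were also far apart in striatal markers, but mouse 2, second in immediate early genes, was low in striatal markers; the part of striatal content in the immediate early differences was not tested. Drd2, the dopamine receptor of the indirect pathway, had -0.52 ± 0.48, Ppp1r1b (DARPP-32) -0.30 ± 0.36 and Pde10a, a striatal phosphodiesterase, -0.27 ± 0.28. The last 2 turned to 0.10 and 0.09 with all 12 arrays.

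Of 19 oligodendrocyte markers 14 lay below 0, against 9166 of 19505 genes. The median was -0.088 (0.177 with all 12 arrays), with 0 at an unadjusted p under 0.05. Ermn, a myelin cytoskeletal protein, had -0.25 ± 0.17, Sox10, the lineage factor, -0.24 ± 0.17, and Ugt8a, the enzyme of galactocerebroside synthesis, -0.15 ± 0.12. Of 17 microglia markers, 6 were above background on all 10 arrays. Among the 17, 14 lay above 0, with a median of 0.053 (0.044 with all 12 arrays) and 0 at an unadjusted p under 0.05. C1qa was at 0.26 ± 0.14, Csf1r at 0.25 ± 0.13 and Siglech at -0.22 ± 0.12. Among 28 glutamate and GABA receptor subunits the median was -0.006, and 0.464 with all 12 arrays. Gabra2, a subunit of the GABA-A receptor, was the 1 at an unadjusted p under 0.05: it was 7.50, 7.86 and 8.00 in MCAO mice and 8.05, 8.12 and 8.19 in sham mice. All MCAO mice were below all sham mice, by a small amount, and the difference was -0.32 ± 0.14 (adjusted p by limma 1.000) and 0.25 with all 12 arrays. The other 24 lists, pericyte and smooth muscle markers included, held 0 genes that passed and had medians of -0.079 to 0.118. Each held at most 3 higher genes at an unadjusted p under 0.05.

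The remaining genes with the smallest p were dim. After Apold1, those higher were Caprin2 (0.66 ± 0.12, adjusted p by limma 0.681), an RNA-binding protein, then Cfap45, Csrp2, Hspb8, Kcnj13, Maff, Cd300e, Tnfaip2 and Mcm3, with differences of 0.54 to 0.81 and an adjusted p of 0.988. Of these, Csrp2 was above background on 1 array and the others on 0. The 10 lower genes with the smallest p were Vmn1r228, Sult5a1, 1700034E13Rik, Gpr160, Olfr671, Olfr891, Olfr1087, Fabp2, Ccdc89 and Col5a1. Their differences were -0.49 to -0.80, none was above background on any array, and 4 are receptors of the vomeronasal and olfactory families, which are expressed in the nose. No fold is given for genes below background in both groups.

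The same genes were then read in the ipsilateral hemisphere of the same mice, where 33 probe sets passed, 28 higher (0.126%) and 5 lower (0.0225%). Of the genes described, 13, among them Npas4, Fos, Ccn1, Rgs2 and Atf3, were chosen because they were higher on that side, so a greater ipsilateral value in those follows at least in part from the choice. Npas4 had 4.88 ± 0.22 on that side against 1.83 ± 0.75 contralaterally, Fos 3.23 ± 0.21 against 1.20 ± 0.49, and Ccn1 3.34 ± 0.15 against 1.51 ± 0.38. Apold1 had 1.77 ± 0.21 against 1.04 ± 0.15, Btg2 2.20 ± 0.18 against 1.00 ± 0.29, and Dusp1 1.69 ± 0.12 against 0.91 ± 0.25. Cldn5 had 0.89 ± 0.23 against 0.68 ± 0.22, Klf4 1.27 ± 0.24 against 1.10 ± 0.28 and Maff 0.86 ± 0.15 against 0.78 ± 0.18. Apold1, Btg2, Dusp1, Cldn5, Klf4 and Maff were instead named for their contralateral values. Sides that lie closer in these genes may follow at least in part from that choice. Maff was above background on no array of either side, and Klf4 on 2 ipsilateral and 1 contralateral arrays, all of MCAO mice. The list of immediate early transcription factors had an ipsilateral median of 1.013 with 11 of 28 passing, against 0.409 with 0 of 28.

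The difference between the sides was tested as an interaction over 20 arrays with mouse as a random block, and 0 probe sets passed by limma, with 1373 at an unadjusted p under 0.05. The smallest adjusted p by limma was 0.163, shared by 11 probe sets, among them Ccl3, whose contralateral minus ipsilateral difference was -2.50 ± 0.43, and Gadd45g, at -1.63 ± 0.32. The value was -3.05 ± 0.80 for Npas4 (adjusted p 0.369), -1.83 ± 0.41 for Ccn1 (0.191, and 0.0304 with all 24 arrays, where it was the 1 probe set that passed), -2.03 ± 0.52 for Fos (0.344) and -0.73 ± 0.25 for Apold1 (0.590). It was -0.17 ± 0.36 for Klf4, -0.08 ± 0.22 for Maff and -0.20 ± 0.30 for Cldn5, which were named for their contralateral values. Some dim genes chosen for their contralateral difference went the other way, Caprin2 at 0.81 ± 0.18 (0.185), Mcm3 at 0.93 ± 0.20 (0.176) and Csrp2 at 0.77 ± 0.21 (0.430), with Caprin2 and Mcm3 above background on no array and Csrp2 on 3 of 20. Rgs2, Atf3, a stress-induced transcription factor, Thbs1, a matrix protein released by platelets and glia, and Hspa1b had contralateral differences of 0.29 ± 0.33, 0.33 ± 0.29, 0.37 ± 0.31 and -0.04 ± 0.23. Ipsilaterally these were 1.88 ± 0.22, 2.23 ± 0.30, 1.44 ± 0.22 and 1.50 ± 0.40. Thbs1 was above background on no array of either side, and with 1 contralateral array left out in turn its difference there ran from 0.09, without sham mouse 3, to 0.79, without sham mouse 4.

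**Figure D5:**
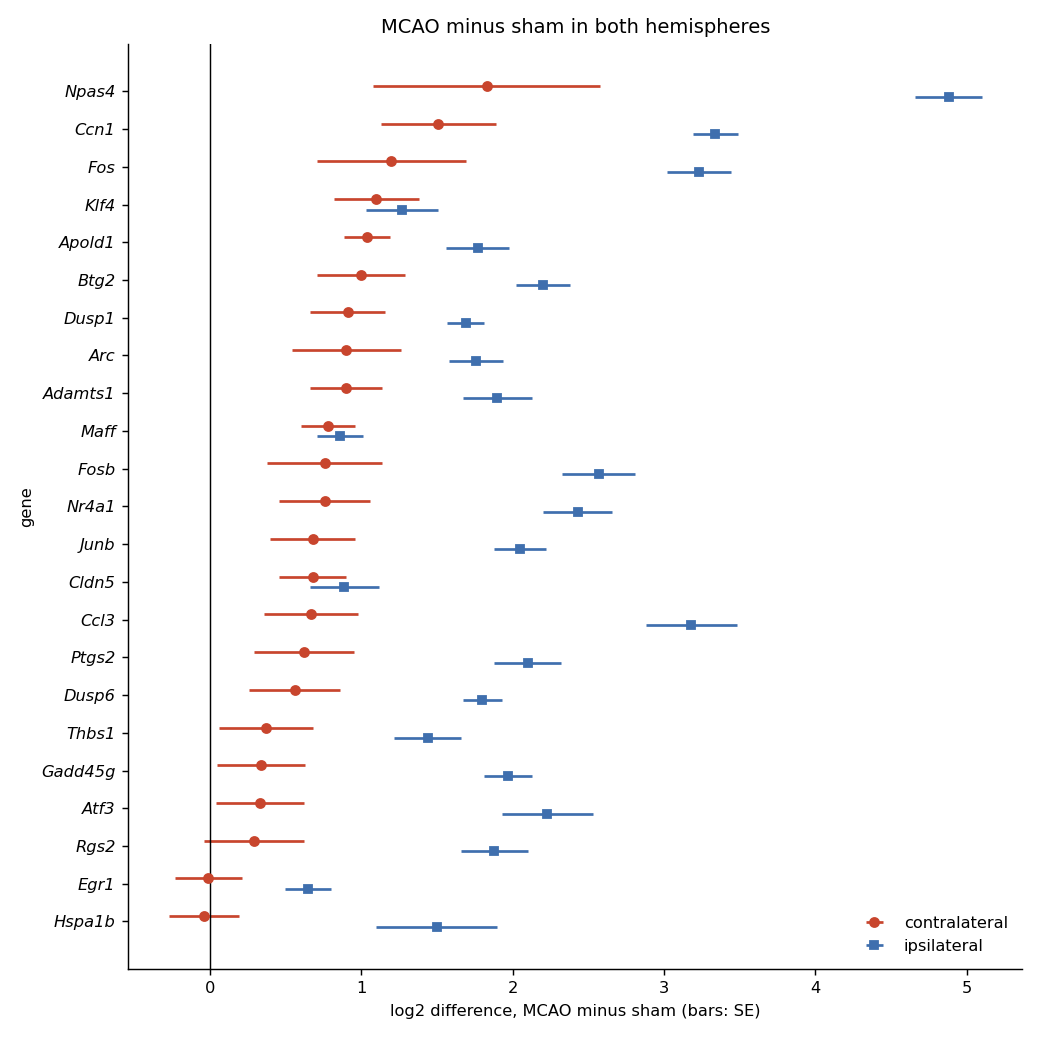
Log2 difference between MCAO and sham mice (horizontal axis, bars are SE) in the contralateral hemisphere (red circles) and the ipsilateral hemisphere (blue squares) for 23 genes (rows), 7 MCAO and 3 sham arrays per side. Npas4 lies at 1.83 and 4.88 on the respective sides, while Klf4 lies at 1.10 and 1.27 and Cldn5 at 0.68 and 0.89. Npas4 was chosen for its ipsilateral value, Klf4 and Cldn5 for their contralateral values.

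Whether mice with more of a transcript on the occluded side also had more on the other was examined in the 7 MCAO mice for 13 genes. Pearson's r was positive for 12 of 13 and ranged from -0.41 for Hspa1b to 0.76 for Thbs1. Without the 2 mice farthest from the median it was positive for 9 of 13, and it turned to -0.04 for Fosb, -0.14 for Ccn1 and -0.41 for Dusp6. For Thbs1, which was below background on every array, the exact permutation p was 0.0494, Spearman's rho was 0.89 (exact p 0.0123), and r without the 2 mice farthest from the median was 0.68. For Atf3, below background on every contralateral array, r was 0.75 (exact permutation p 0.0579) and fell to 0.18 without the 2 farthest mice, so that value rests on those mice. For Arc r was 0.67 (exact permutation p 0.113) and rho 0.96 (exact p 0.00278, adjusted p 0.0723), with r at 0.75 without the 2 farthest mice. For Fos r was 0.67 (exact permutation p 0.0944, adjusted p 0.351), rho was 0.75 (exact p 0.0663), and r was 0.86 without the 2 farthest mice. None of the 26 values passed Benjamini-Hochberg adjustment, where the smallest adjusted p was 0.0723.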

How the data were processed

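Per the labels' protocols, total RNA came from frozen hemispheres by the mirVana Paris kit, and its labelling used the GeneChip WT Plus kit, with 1 array per hemisphere. The series design text speaks of an mRNA fraction. The submitters' processing notes name Affymetrix Expression Console as the tool with which the authors made the deposited log2 signals. The sources used here give no version, background correction, normalization or genome build for it. That the scale is log2 was read from the values' range, and folds rest on it. All 24 columns had medians of 4.622 to 4.769.

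Of 29129 rows, 6923 controls were left out and 22206 tested without a filter on signal. Of these, 19572 had 1 gene symbol in the platform annotation, 0 several and 2634 none here; all 19572 Entrez identifiers were found in RefSeq (GRCm38.p6). No 2 arrays held identical values. Differences were fitted with lmFit and eBayes of limma 3.58.1 in R 4.3.3, two-sided, on arrays with an SD of at least 2, with Benjamini-Hochberg adjustment across every probe set tested and a threshold of 0.05. Errors of differences are SE. The interaction used duplicateCorrelation with mouse as a random block (consensus correlation 0.172). Mice are separate animals; those of the same number in the 2 surgery groups are different animals and were not paired. Gene lists were described by counts and medians over 1 probe set per gene (the brightest), with no test. Named genes were the 10 with the smallest p in each direction, since 0 passed, the 3 with the smallest p of each list described, and 13 genes that earlier work on these data found higher in the occluded hemisphere. Adamts1, Btg2, Ciart, Cldn5, Csrnp1, Dusp1, Egr1, Fosl2, Ier2, Ier3, Ier5, Jun, Junb, Klf4, Nr4a1, Nr4a2, Nr4a3, Sprr2j-ps and Zfp36 were also named after their values were seen, where no part of that rule held. The members, lists and SD limit were chosen with earlier results of these data known. Where no sham array was above background and the MCAO mean was, a fold is a lower bound, for which dim signals were raised to their array's background. The fits were tested on simulated data. Python 3.11.15 with matplotlib 3.10.9 drew the figures. Alternatives were all 12 arrays, other blocks, eBayes settings, a filter on dim probe sets, other scalings, array weights, 1 probe set per gene, and leaving out each mouse.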

Additional observations from a re-analysis of the deposited data

Results flagged for a closer look

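Among 86 sets of values examined, the highest or lowest sample stood apart in 7, where about 1 in 20 sets, or 4.3, would do so by chance. The 7 include the array standard deviations by which 2 arrays had been set aside, so those were known beforehand. The other 5 are genes, close to the number given by chance. The standard deviation of log2 signal was 1.475 in MCAO mouse 3 against 2.328 in the next contralateral MCAO array, and 1.437 in sham mouse 1 against 2.366 in the next sham array. In the 7 contralateral MCAO arrays, mouse 6 was high for Fosb, at 8.33 against 6.87 in the next mouse, and for Gadd45g, at 7.88 against 6.71. Mouse 2 was high for Ermn, at 8.48 against 8.05. Mouse 1 was low for Ccdc89, at 1.89 against 2.36, and for Cd300e, at 2.44 against 2.75, both below background.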

How the results depend on the processing

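The contralateral count of probe sets that passed stayed at 0 higher and 0 lower in the fits not named here, and became 1 higher, Apold1, with eBayes trend and robust settings, without dim probe sets (11103 tested) and with array weights on all 12 arrays. Leaving out each of the 10 mice in turn gave 0 calls and 904 to 1214 probe sets at an unadjusted p under 0.05. That number, 1020 here, was 81 with all 12 arrays and 339 without dim probe sets. With mouse number as a replicate block it was 851 with 0 calls. Among the arrays used, only mouse numbers 2 and 4 occurred in both groups. Their deviations correlated at 0.132 and -0.022, against -0.116 to 0.104 between mice of different number. With so few shared numbers, neither these values nor the block fit can decide whether the numbers pair the mice. With all arrays of a side, chosen after seeing the data, the ipsilateral count fell from 33 to 1 (Ccn1) and the interaction count went from 0 to 1 (Ccn1, -2.09).

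With all 12 arrays the medians of lists became 0.489 for activity effectors, 0.289 for glucocorticoid-responsive genes, -0.031 for NF-kB targets, 0.246 for hypoxia targets, 0.412 for heat shock chaperones, 0.392 for clock genes, 0.367 for sterol genes, 0.464 for receptor subunits, 0.177 for oligodendrocyte markers and 0.293 for endothelial markers. The median of the 24 pan-neuronal markers became 0.537. Members higher at an unadjusted p under 0.05 by limma went from 5 to 1 of 20 NF-kB targets and from 3 to 1 of 25 activity effectors. Among 18 heat shock chaperones they went from 2 to 1. Such members went from 3 to 0 of 23 cytokines and chemokines, from 3 to 0 of 23 sterol genes and from 2 to 0 of 19 endothelial markers. Over all 19505 genes those higher at that p went from 504 to 43, so a fall was not particular to these lists. Of 84 genes named, 9 changed sign with all 12 arrays: Egr1 (0.72), Gabra2 (0.25), Kcnj13 (-0.12), Pde10a (0.09), Ppp1r1b (0.10), Selp (-0.13), Spry1 (-0.01), Ugt8a (0.14) and Vegfa (-0.22). Egr1 was 0.08 with the replicate block and 0.01 with array weights on 12 arrays, Hspa1b 0.05 and 0.04 with array weights on 10 and 12, and Nr4a3 -0.02 with median centring, -0.02 with array weights on 10 and 0.00 on 12. Leaving out 1 mouse turned the sign of Egr1 (-0.12 to 0.07), Hspa1b (-0.31 to 0.17), Nr4a2 (-0.18 to 0.29), Nr4a3 (-0.06 to 0.11) and Atf3 (-0.12 to 0.65). The cause was not tested. The number of arrays, 3 of them sham, and signals at the level of the negative controls limit what could be detected.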
